A study of Mus musculus with 32 samples.

Results

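The 40 genes described here are antiviral interferon-stimulated genes, taken from a named list and not by their values. All 40 were present among the 24421 genes of the count tables, and all 40 were among the 13453 genes with enough counts to be tested. The libraries are bulk RNA sequencing of adipose tissue macrophages sorted from epididymal adipose tissue (C57BL/6J strain). There were 32 libraries in 8 groups of 4, formed by genotype (wild type, WT, or myeloid-specific knockout of A20, KO), diet (standard diet, SD, or high fat diet, HFD, each for 12 weeks) and sorted population. Cells of the CD11c+ sort had much CD11c and little CD206 on their surface, and cells of the CD206+ sort the reverse. The labels do not name the promoter that drives the myeloid deletion, nor the age of the mice, nor whether a library came from 1 mouse or from several. They call the 4 libraries of a group replicates without saying what was replicated, so the p-values below measure the spread between these libraries, which may be technical.

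Interferons are secreted proteins that switch on a shared set of genes in the cells that receive them. Type I interferons act through a receptor whose signal reaches a DNA motif called the interferon-stimulated response element (ISRE), bound by a complex that holds STAT2 and IRF9. Interferon-gamma has its own receptor and acts on another motif, the gamma-activated sequence (GAS). The induced genes sense foreign RNA and DNA, degrade RNA, block viral entry and release, or modify other proteins. A20 is the product of Tnfaip3, and it limits NF-kB activation by acting on ubiquitin chains.

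Each library held 17619638 to 23832924 gene counts, and levels below are CPM (counts scaled to a common library size of 1e6) with trimmed mean of M-values (TMM) factors. Tnfaip3 was at 167 to 474 CPM in the KO libraries and 486 to 1650 in the WT libraries, and was lower in KO in each of the 4 pairings of population and diet (log2 fold changes -1.45, -1.98, -1.86 and -1.28). Itgax, which encodes CD11c, was at 146 to 379 CPM in CD11c+ libraries and 1.25 to 50.3 in CD206+ libraries. Mrc1, which encodes CD206, was at 401 to 722 and 1290 to 2150 CPM in the same order. The 8 macrophage markers summed to at least 16200 CPM in every library. The 4 WT CD11c+ SD libraries stood apart, with macrophage markers at 31500 to 35700 CPM and 6 monocyte markers at 4280 to 4930 CPM, against 16200 to 23600 and 1030 to 2920 CPM in all other libraries. They are 1 whole group, so each comparison with WT CD11c+ SD cells rests on them and cannot be made without them.

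The promoters of 4 members are shown first because they carry the ISRE letters and belong to genes that differed strongly with genotype. RefSeq promoters (GRCm38.p6, 250 bases before to 50 after a start site) matched 30 of the 40 members. The ISRE was searched as GAAANNGAAA on both strands, and the GAS as TTCNNNGAA, whose reverse complement is the same pattern. Matches of the motifs were counted separately, whether or not they overlapped. The ISRE letters were in a promoter of 15 of the 30 members (50%), against 401 of 10243 tested genes (3.91%) and 3.44% of all 32851 promoters of the same length. The GAS letters were in 8 of the 30 (26.7%), against 8.44% of tested genes. A match describes the letters and is neither a binding site nor a cause. Each line gives the 150 bases that end just before the start site, 5′ to 3′ on the gene's strand, with ISRE letters in capitals. A match on the other strand begins with TTTC in the printed run.
Isg15 (chr4:156200819-156200968, minus strand): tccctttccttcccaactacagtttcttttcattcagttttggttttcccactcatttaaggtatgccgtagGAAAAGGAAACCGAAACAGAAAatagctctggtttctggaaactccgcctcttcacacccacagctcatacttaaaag
Ifit1 (chr19:34640739-34640888, plus strand): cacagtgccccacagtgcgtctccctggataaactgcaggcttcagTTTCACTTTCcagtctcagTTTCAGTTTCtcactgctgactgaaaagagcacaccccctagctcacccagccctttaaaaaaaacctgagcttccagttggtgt
Oas3 (chr5:120777660-120777809, minus strand): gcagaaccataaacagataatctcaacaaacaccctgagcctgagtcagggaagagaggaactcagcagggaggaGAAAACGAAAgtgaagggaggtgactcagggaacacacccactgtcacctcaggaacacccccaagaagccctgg
Rsad2 (chr12:26456453-26456602, minus strand): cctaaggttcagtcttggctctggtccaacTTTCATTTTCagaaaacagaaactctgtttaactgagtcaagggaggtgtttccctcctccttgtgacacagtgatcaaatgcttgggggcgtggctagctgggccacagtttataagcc
Isg15 held 3 overlapping matches that began 78, 72 and 66 bases before the start site. Ifit1 held 2 on the other strand, at 104 and 85 bases before it. Oas3 held 1 at 75 bases and Rsad2 held 1, on the other strand, at 120 bases.

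The promoters of the neighbouring genes Oas1a and Oas1g are shown because these copies are close enough to share reads. The pair was chosen after its values were seen.
Oas1a (chr5:120907526-120907675, minus strand): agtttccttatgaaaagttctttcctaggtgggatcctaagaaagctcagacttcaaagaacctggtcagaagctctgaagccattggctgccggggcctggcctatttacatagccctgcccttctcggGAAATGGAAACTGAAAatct
Oas1g (chr5:120887614-120887763, minus strand): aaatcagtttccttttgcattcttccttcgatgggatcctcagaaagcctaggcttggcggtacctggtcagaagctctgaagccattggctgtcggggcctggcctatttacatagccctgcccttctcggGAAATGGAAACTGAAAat
With a shift of 2 bases, the printed stretches had the same letter at 81.1% of 148 positions. Both ended in 2 overlapping ISRE matches, at 20 and 14 bases before the start site of Oas1a and 18 and 12 before that of Oas1g. Of the 50-base words of Oas1a's exons, 57.6% were also in Oas1g, and 45.7% of Oas1g's were in other genes, so the split of reads between them is uncertain. The same holds for Ifit3, with 51.2% of its 50-base words in Ifit3b, and for Phf11b, with 47% in related genes. Whether counting used strand is not given in the sources used here. Parp9 and Dtx3l lie on opposite strands and overlap over 9.4% and 8% of their exonic bases, Adar overlaps Chrnb2 over 16.8% and Ifi35 overlaps Gm11626 over 16.8%, so without strand their reads there cannot be told apart. On the same strand, Herc6 overlaps Gm45193 over 13.7% and Rtp4 overlaps Gm45338 over 13.9%, where strand would not separate the reads.

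The mean over the 40 genes of log2(CPM + 1) in each library gave 2 bands that did not overlap, 1 for each genotype. In WT mice it was 4.18 ± 0.2 (SD, n = 4) in CD11c+ cells on SD and 4.27 ± 0.22 (SD, n = 4) on HFD. It was 5.08 ± 0.17 (SD, n = 4) in WT CD206+ cells on SD and 4.68 ± 0.27 (SD, n = 4) on HFD. In KO mice the mean was 6.05 ± 0.25 (SD, n = 4) in CD11c+ cells on SD and 5.83 ± 0.11 (SD, n = 4) on HFD, and in CD206+ cells 6.52 ± 0.24 (SD, n = 4) on SD and 6.15 ± 0.12 (SD, n = 4) on HFD. The highest WT library, from CD206+ cells on SD, was at 5.3, and the lowest KO library, from CD11c+ cells on HFD, was at 5.72. In the order of levels the WT CD11c+ groups overlapped (4.01 to 4.44 on SD and 4.01 to 4.56 on HFD), as did both with the WT CD206+ HFD group (4.34 to 5). WT CD206+ SD (4.91 to 5.3) overlapped WT CD206+ HFD and no other group. KO CD11c+ SD (5.82 to 6.31) overlapped KO CD11c+ HFD (5.72 to 5.96), KO CD206+ HFD (5.99 to 6.27) and KO CD206+ SD (6.28 to 6.77). No test is given for this mean.

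**Figure D1:**
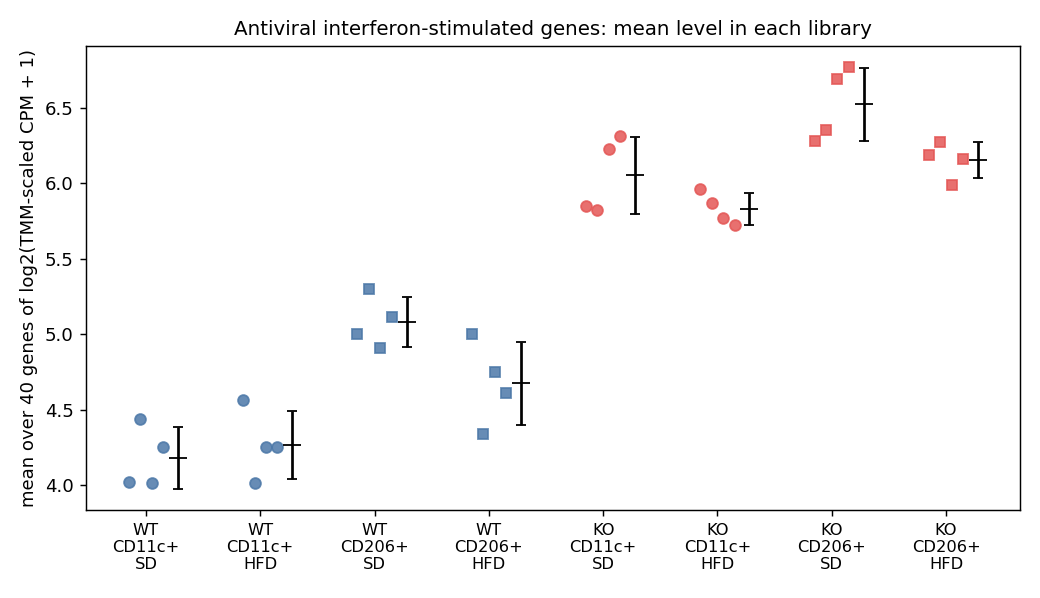
Mean over 40 antiviral interferon-stimulated genes of log2(TMM-scaled CPM + 1), 1 point for each of 32 libraries, with the group mean and SD (n = 4) as a black bar beside the points. All KO libraries (red) lie at 5.72 or above and all WT libraries (blue) at 5.3 or below.

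Per kilobase of exon, Ifitm3, which blocks the fusion of viruses with cell membranes, had the highest level of the 40 in every group, from 224 CPM per kilobase in WT CD11c+ HFD cells to 1380 in KO CD206+ HFD cells. In the 4 KO groups the next were Ly6e (254 to 624), Lgals3bp (170 to 216) and Bst2 (99.9 to 174). Ly6e was not among the top 5 in either WT CD11c+ group. At the other end, Mx2 was at 0.224 to 1.21 CPM per kilobase and Ifi44 at 0.115 to 3.69 over the 8 groups. Mx2 is annotated as a polymorphic pseudogene, and Mx1 is known to be defective in this strain.

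Loss of A20 was compared with WT within each population and diet. Values in each library are given in the order of the replicate numbers, and where values of a pair of groups are joined, KO, HFD or CD11c+ comes first. Of the 40 members, 37 were higher in KO CD11c+ HFD cells, where 18.6% of all tested genes were called higher. In CD11c+ SD cells 38 were higher (background 13.2%), in CD206+ HFD cells 39 (10.5%) and in CD206+ SD cells 38 (11.8%). None was lower in any of the 4 comparisons by edgeR's quasi-likelihood test, where 19.4%, 13.6%, 11.3% and 12.7% of all genes were called lower in the same order. DESeq2 also called none lower, and 1 member, Trim25 in CD11c+ SD cells, was lower at an unadjusted p under 0.05. Without KO CD11c+ HFD replicate 1, 1 member was called lower in CD11c+ HFD cells. The median log2 fold change over the 40 was 1.38, 1.79, 1.39 and 1.3, against -0.02, -0.02, 0 and -0.03 over all tested genes. The 4 KO libraries lay above all 4 WT libraries for 37, 36, 39 and 39 members. Such a count was not made over all genes, so it has no background. In all 4 comparisons 36 members were called higher. The joint share over all genes was not counted, and it cannot exceed the 10.5% of CD206+ HFD cells. Oas2 and Eif2ak2 were called in 3, Mx2 and Trim25 in 1. In bulk samples, more cells of a type and more RNA per cell cannot be told apart. By edgeR, Itgax was lower in KO CD206+ HFD cells (log2 fold change -3.34, SE 0.34, adjusted p = 1.34e-08). It was also lower in KO CD11c+ HFD cells (log2 fold change -0.71, SE 0.28, adjusted p = 0.0463), and was not called on SD. Mrc1 was called only in CD11c+ SD cells, higher in KO (log2 fold change 0.38, SE 0.11, adjusted p = 0.0134). The part of these differences in the results was not tested.

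**Figure D2:**
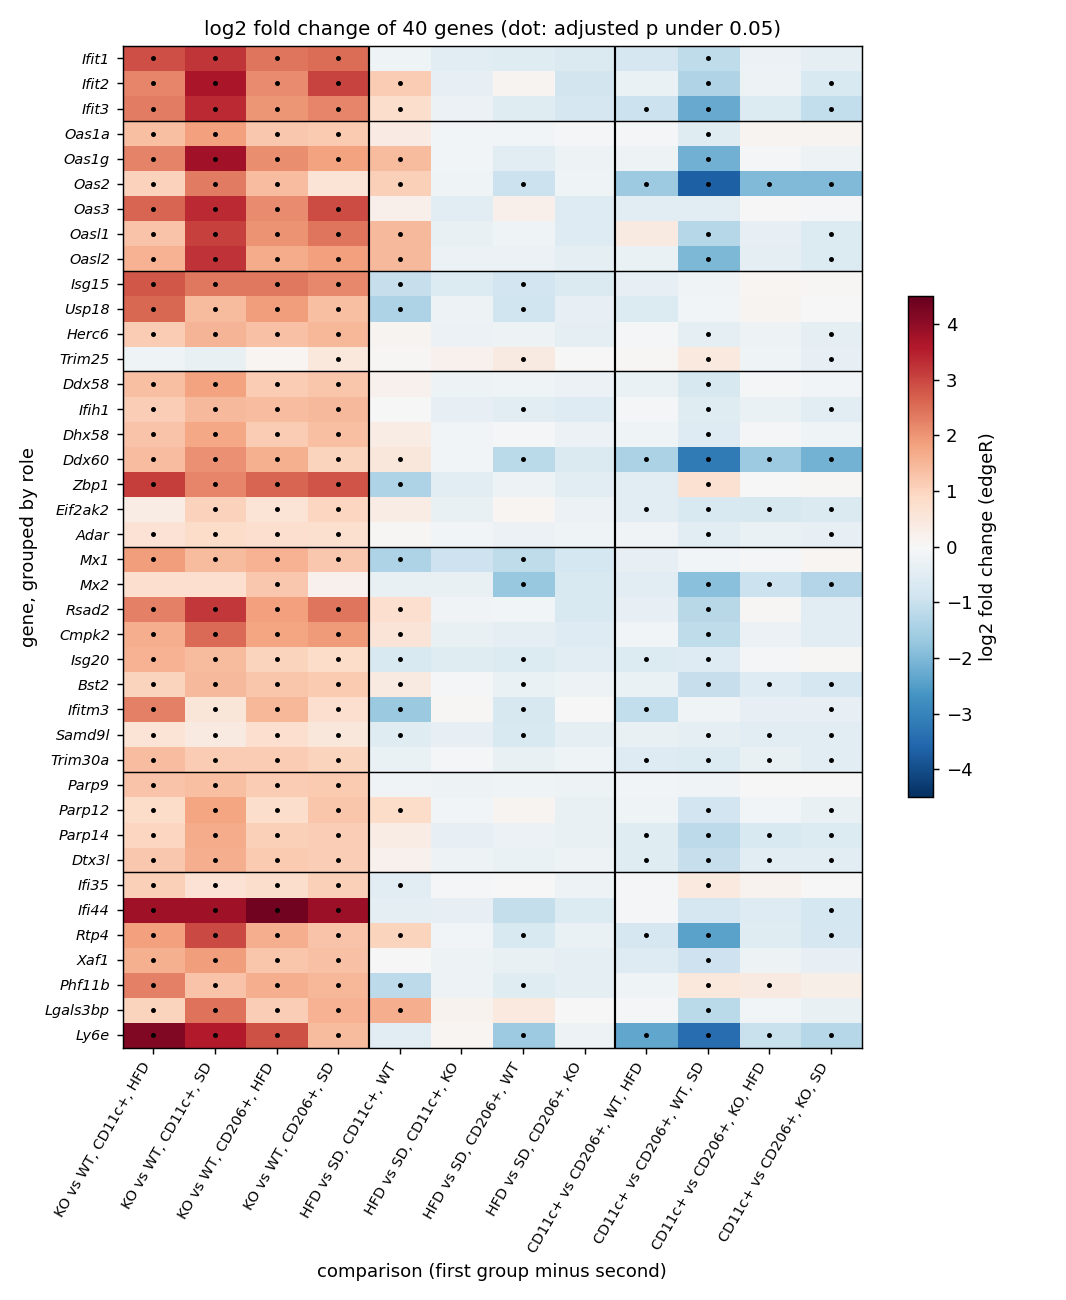
log2 fold change (edgeR, colour) of each of 40 genes (rows, by role) in 12 comparisons (columns), with a dot where the adjusted p was under 0.05. The 4 genotype columns are nearly all dotted and red, the 2 diet columns in KO hold no dot, and the population columns are mainly blue.

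IFIT proteins bind foreign RNA, and Ifit1 recognises RNA caps that lack host modifications. Ifit1 (ENSMUSG00000034459.8, chr19:34640871-34650009, plus strand, protein coding) was at 42.7, 38.4, 29.4 and 28 CPM in KO CD11c+ HFD libraries and at 8.43, 2.44, 3.32 and 4.34 in their WT counterparts. In CD11c+ cells on SD it was at 32.6, 39.7, 56.9 and 68.4 in KO and 5.05, 4.82, 6.31 and 4.95 in WT. The groups did not overlap, and the differences were 7.49-fold (log2 fold change 2.9, SE 0.31, adjusted p = 1.37e-08) on HFD and 9.34-fold (log2 fold change 3.22, SE 0.31, adjusted p = 3.14e-09) on SD. CD206+ cells had 44.9, 45.8, 32.7 and 42.6 CPM in KO and 12.2, 5.49, 7.46 and 6.23 in WT on HFD. On SD they had 44.2, 48.1, 76.3 and 94.3 and 12.1, 14.8, 9.09 and 10.5. KO and WT did not overlap there either (log2 fold change 2.4, SE 0.3 on HFD and log2 fold change 2.5, SE 0.29 on SD). Ifit2, which binds AU-rich RNA, was at 57.3, 57.2, 89.5 and 124 CPM in KO and 6.46, 7.24, 5.77 and 5.86 in WT CD11c+ SD libraries, 12.9-fold higher (log2 fold change 3.69, SE 0.32, adjusted p = 2.91e-10). In CD206+ cells on SD it was at 94.4, 88.1, 157 and 194 in KO and 17.7, 19.9, 11.8 and 14.8 in WT, and on HFD at 79.2, 85.7, 60.3 and 77.2 and 31.4, 11.2, 12.8 and 14. Both differences were clear of the spread (log2 fold change 3.05, SE 0.3 on SD and log2 fold change 2.12, SE 0.29 on HFD). Ifit3, of the same family, was at 21.4, 26.5, 35.4 and 38 in KO and 2.05, 4.34, 3.1 and 2.35 in WT CD11c+ SD libraries (log2 fold change 3.35, SE 0.32, adjusted p = 2.02e-09).

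The oligoadenylate synthetases make a messenger that activates RNase L, which cuts RNA. Oas3 (ENSMUSG00000032661.9, chr5:120753098-120777661, minus strand, protein coding) was at 62.6, 50.2, 44.8 and 50.7 CPM in KO and 11.1, 5.08, 7.05 and 11 in WT CD11c+ HFD libraries, 6.09-fold higher (log2 fold change 2.61, SE 0.29, adjusted p = 2.35e-08). In CD11c+ cells on SD it was at 56.4, 49.2, 94.5 and 98.8 and 4.73, 9.45, 5.61 and 9.32 (log2 fold change 3.37, SE 0.3). In CD206+ cells on SD it was at 57.8, 61.7, 92.3 and 95 in KO and 9.09, 10.5, 8.81 and 12.1 in WT (log2 fold change 2.92, SE 0.29). On HFD, CD206+ cells had 46.9, 59.3, 41.6 and 58 in KO and 15.8, 5.81, 15.2 and 10.4 in WT. No KO library overlapped a WT library of its own comparison. Oas1g had the largest difference of the family, 13.7-fold in CD11c+ SD cells, from 1.27, 3.57, 1.12 and 1.89 CPM in WT to 25.6, 25.9, 31.5 and 25.5 in KO (log2 fold change 3.78, SE 0.3, adjusted p = 9.64e-11). Oasl1, a relative without synthetase activity, was 8.38-fold higher in KO in CD11c+ SD cells, and in CD206+ SD cells stood at 69, 82.2, 107 and 90.7 in KO and 11.1, 19.2, 14.8 and 20.1 in WT (log2 fold change 2.42, SE 0.24). Oas2 was the exception. It was higher in 3 comparisons, and in CD206+ SD cells it was at 43.6, 41, 45.3 and 42.8 CPM in KO and 25.3, 33.4, 27.8 and 25.2 in WT, groups that did not overlap yet missed the threshold (log2 fold change 0.63, SE 0.24, adjusted p = 0.0575).

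Isg15 is a ubiquitin-like protein that is joined to other proteins and also secreted. Isg15 (ENSMUSG00000035692.6, chr4:156199424-156200818, minus strand, protein coding) was at 32.7, 35.9, 29.1 and 26.2 CPM in KO and 5.9, 3.9, 4.14 and 3.91 in WT CD11c+ HFD libraries, 6.94-fold higher (log2 fold change 2.79, SE 0.23, adjusted p = 9.72e-11). The SD values in CD11c+ cells were 34.4, 42.7, 54.8 and 57.9 in KO and 9, 9.26, 8.23 and 10.3 in WT. In CD206+ cells KO libraries were at 31.8, 29.1, 24.9 and 31.2 and WT at 8.18, 3.7, 5.53 and 5.37 on HFD, and at 31.3, 41.3, 50.5 and 59.8 and 12.4, 13.3, 7.43 and 8.07 on SD. These 3 log2 fold changes were 2.37, 2.36 and 2.15, with no overlap of KO and WT. Usp18, which removes ISG15 and dampens the type I receptor, was 6.05-fold higher on HFD and 2.69-fold higher on SD in CD11c+ cells. Herc6, the mouse ISG15 ligase, was 2.21- to 2.9-fold higher over the 4 comparisons. Trim25, a ubiquitin ligase that acts on the RNA sensor RIG-I, differed from the rest of the group. It was at 297, 168, 154 and 218 CPM in KO and 215, 225, 259 and 253 in WT CD11c+ HFD libraries (log2 fold change -0.19, SE 0.15, adjusted p = 0.359). In CD11c+ SD cells all 4 KO libraries were below all 4 WT libraries, at 174, 171, 200 and 194 and 204, 267, 226 and 226, with an adjusted p of 0.127. It passed only in CD206+ SD cells, at 281, 206, 255 and 208 in KO and 162, 164, 175 and 184 in WT (log2 fold change 0.47, SE 0.15, adjusted p = 0.0236), and did not pass there without KO CD206+ SD replicate 1 (log2 fold change 0.36).

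Of the 7 nucleic acid sensors and editors, 6 were higher in KO CD11c+ HFD cells and 7 in each of the other 3 comparisons. Zbp1, which senses Z-form nucleic acid and can start necroptosis, led the group. Zbp1 (ENSMUSG00000027514.14, chr2:173206612-173218923, minus strand, protein coding) was at 117, 96.1, 75 and 106 CPM in KO and 12.7, 9.62, 15 and 8.78 in WT CD11c+ HFD libraries, 8.56-fold higher (log2 fold change 3.1, SE 0.26, adjusted p = 2.4e-10). On SD the CD11c+ values were 116, 104, 155 and 172 in KO and 28.6, 28.3, 25.2 and 38.3 in WT (log2 fold change 2.18, SE 0.25). In CD206+ cells KO and WT were at 104, 98.1, 60.4 and 124 and 20.5, 10.5, 21.6 and 10.8 on HFD. On SD they were at 103, 100, 144 and 182 and 17, 24.2, 15.8 and 17.8 (log2 fold change 2.61, SE 0.26 on HFD and log2 fold change 2.82, SE 0.26 on SD). The KO and WT values never overlapped. The cytosolic RNA sensors Ddx58 (RIG-I), Ifih1 and Dhx58 were 2.16- to 3.5-fold higher over the 4 comparisons. Eif2ak2, a kinase that stops translation on double-stranded RNA, was at 21.5, 16.2, 15.2 and 23.8 CPM in KO and 19.1, 13.8, 14.4 and 13.1 in WT CD11c+ HFD libraries, which overlapped (log2 fold change 0.35, SE 0.16, adjusted p = 0.0906). It passed in the other 3 comparisons, with 0.61 in CD206+ HFD cells, where KO was at 33.2, 34.3, 26.8 and 32.7 and WT at 24.6, 16.5, 21.1 and 21.1. Adar, which edits adenosines in double-stranded RNA, was among the smallest differences that passed. It was at 94.9, 115, 110 and 111 CPM in KO and 71.4, 55.6, 63 and 62.8 in WT CD206+ HFD libraries, and at 113, 119, 146 and 117 and 65.1, 85.6, 69.9 and 82.5 on SD (log2 fold change 0.77, SE 0.13 and log2 fold change 0.71, SE 0.13).

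Among the 9 direct effectors, 8, 8, 9 and 8 were higher in KO in CD11c+ HFD, CD11c+ SD, CD206+ HFD and CD206+ SD cells. Rsad2, or viperin, makes a nucleotide analogue that ends viral RNA chains. Rsad2 (ENSMUSG00000020641.16, chr12:26442746-26456452, minus strand, protein coding) was at 85.8, 72.8, 54 and 50.8 CPM in KO and 19.9, 9.62, 11 and 14.1 in WT CD11c+ HFD libraries, 4.82-fold higher (log2 fold change 2.27, SE 0.26, adjusted p = 4.65e-08). On SD the CD11c+ values were 56.7, 53, 77 and 106 and 8.41, 9.94, 6.36 and 7.82, 8.97-fold apart. In CD206+ cells KO and WT were at 69.5, 73.3, 51.1 and 60 and 21.6, 15.7, 18.1 and 15.1 on HFD, and at 70.9, 74.9, 109 and 158 and 18.2, 26.5, 15.2 and 17.8 on SD (log2 fold change 1.85, SE 0.25 and log2 fold change 2.41, SE 0.26). Its neighbour Cmpk2, a nucleotide kinase, was 3.1- to 5.86-fold higher. Ifitm3 was higher by 4.79-fold in CD11c+ cells on HFD and by 1.46-fold on SD. On SD its values in CD11c+ cells overlapped, at 822, 546, 785 and 693 in KO and 507, 487, 349 and 600 in WT (log2 fold change 0.55, SE 0.15, adjusted p = 0.0072). Samd9l, which restrains translation, differed by 1.33- to 1.69-fold over the 4 comparisons. It was at 113, 137, 147 and 152 CPM in KO and 115, 108, 117 and 72.3 in WT CD11c+ SD libraries (log2 fold change 0.41, SE 0.14, adjusted p = 0.0303). Without KO replicate 2, 3 or 4 or WT replicate 4 of these groups the call was lost, with log2 fold changes of 0.38, 0.35, 0.34 and 0.28. In CD206+ cells Samd9l was at 158, 149, 125 and 156 and 110, 71, 67.7 and 100 on HFD, and at 180, 182, 202 and 226 and 133, 143, 144 and 135 on SD (log2 fold change 0.75, SE 0.14 and log2 fold change 0.51, SE 0.14). Mx2 passed only in CD206+ HFD cells, at 3, 2.42, 2.71 and 2.59 in KO and 1.43, 0.686, 1.53 and 0.951 in WT (log2 fold change 1.22, SE 0.3, adjusted p = 0.00326). Its adjusted p was 0.0593, 0.0678 and 0.651 in CD11c+ HFD, CD11c+ SD and CD206+ SD cells.

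Parp9 and Dtx3l form a ubiquitin ligase complex, and Parp12 and Parp14 are related ADP-ribosyltransferases. All 4 were higher in KO in all 4 comparisons. Parp9 (ENSMUSG00000022906.15, chr16:35938470-35972605, plus strand, protein coding) was the steadiest of the 40, with log2 fold changes between 1.16 and 1.34. It was at 114, 106, 104 and 97.9 CPM in KO and 45.7, 44.2, 43.3 and 40.8 in WT CD11c+ HFD libraries (log2 fold change 1.28, SE 0.12, adjusted p = 9.44e-10). On SD the CD11c+ values were 127, 111, 127 and 132 and 44.6, 61, 42.1 and 48.3. In CD206+ cells KO and WT were at 107, 109, 93.5 and 118 and 52.3, 38.8, 51.5 and 49.1 on HFD and at 108, 108, 133 and 151 and 49.3, 62.1, 49.6 and 59.2 on SD. KO libraries thus lay between 93.5 and 151 CPM and WT libraries between 38.8 and 62.1 CPM, whichever the population or diet.

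All 7 of the remaining interferon-induced genes were higher in all 4 comparisons. Ly6e, a membrane-anchored protein that blocks the entry of some viruses, had the largest difference in CD11c+ HFD cells. Ly6e (ENSMUSG00000022587.14, chr15:74955051-74959905, plus strand, protein coding) was at 1230, 903, 939 and 984 CPM in KO and 40.4, 50, 73.4 and 59.6 in WT, 18.2-fold higher (log2 fold change 4.18, SE 0.25, adjusted p = 3.78e-13). On SD the CD11c+ values were 1050, 623, 996 and 1180 and 54.3, 108, 48.4 and 110, 12-fold apart. In CD206+ cells KO and WT were at 2180, 2070, 1730 and 2070 and 264, 228, 372 and 256 on HFD, 7.19-fold apart. On SD they were at 2330, 2310, 2530 and 2270 and 788, 916, 672 and 1100, 2.72-fold apart. Every KO library lay above every WT library of its comparison, and the lowest ratio was in the group with the highest WT levels. Ifi44, a protein of poorly known function, had the largest ratios in the other 3 comparisons but low levels. It was at 8.93, 12.4, 17.9 and 12.5 CPM in KO and 0.546, 2.07, 0.428 and 0.586 in WT CD11c+ SD libraries (log2 fold change 3.8, SE 0.41, adjusted p = 2.52e-08). In CD206+ cells it was at 14.9, 19.9, 11.2 and 13.5 and 0.995, 0.594, 0.296 and 0.998 on HFD, 20.3-fold higher, and at 17.2, 17.2, 33.1 and 23 and 1.24, 2.82, 0.476 and 1.64 on SD, 14.6-fold higher. Ifi35 had the smallest difference of the group in CD11c+ SD cells, at 70.8, 72, 78.6 and 76 in KO and 48.2, 44.8, 42.4 and 53.8 in WT (log2 fold change 0.65, SE 0.11, adjusted p = 5.17e-05).

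**Figure D3:**
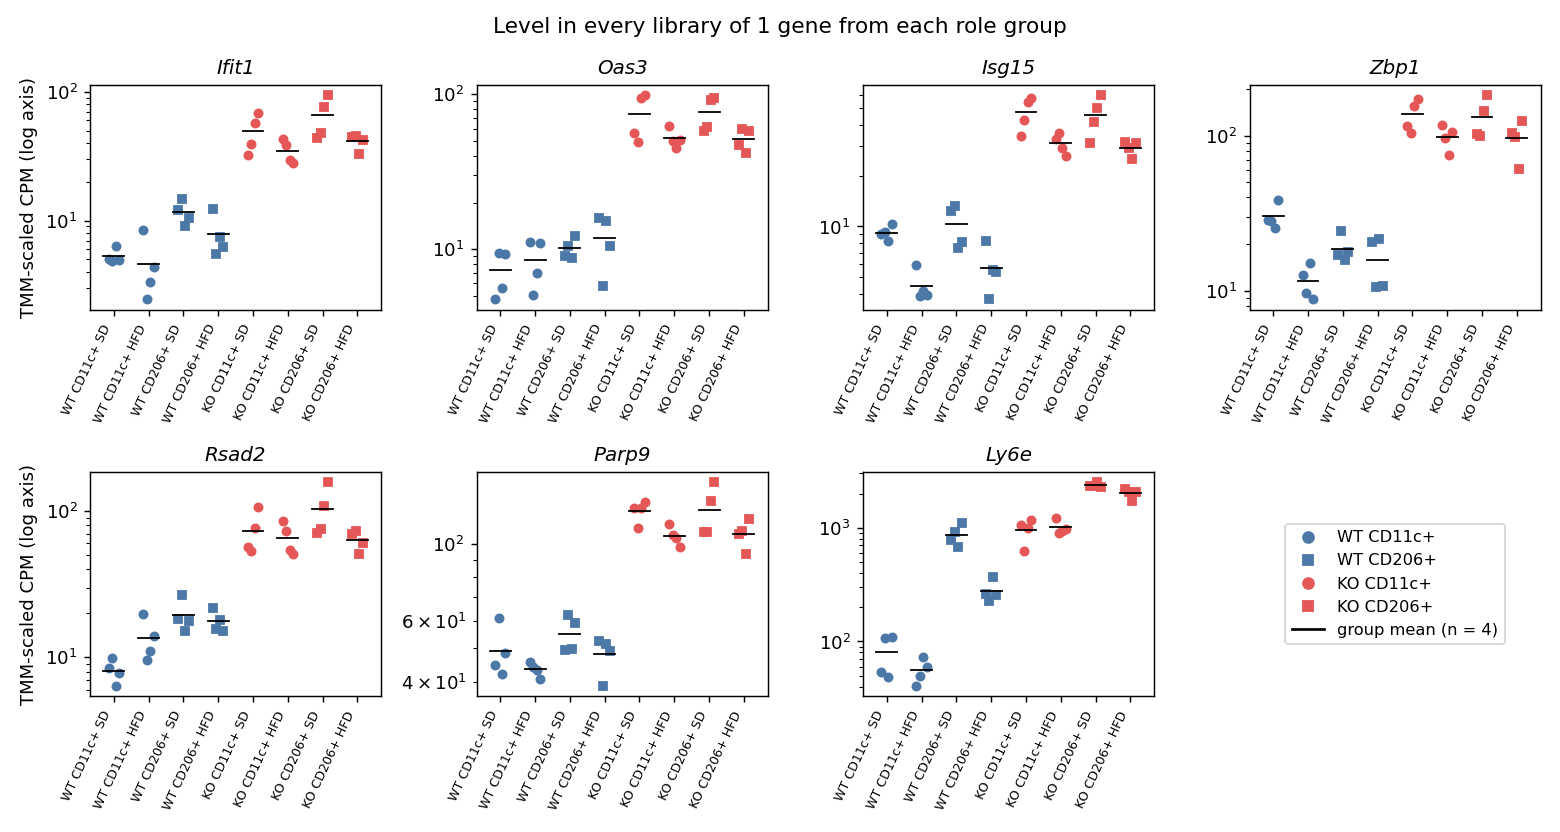
TMM-scaled CPM (log axis) of 1 gene from each role group in every library, by group, with the group mean (n = 4) as a line. KO libraries (red) lie above WT libraries (blue) of the same population and diet in every panel, and in the Ly6e panel CD206+ cells (squares) lie above CD11c+ cells (circles) in both genotypes.

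The genes that act upstream were described from lists of the pathway. Of 13 interferon ligands only Ifng reached the count filter. It was at 1.08, 1.29, 3.23 and 2.72 CPM in KO and 0.346, 0.0914, 0.0494 and 0.285 in WT CD206+ HFD libraries (log2 fold change 3.38, SE 0.92, adjusted p = 0.00747), and at 0.222, 1.55, 1.53 and 1.13 and 0.263, 0, 0.0511 and 0.0965 in CD11c+ HFD libraries (log2 fold change 3.38, SE 1.04, adjusted p = 0.0106). In CD206+ SD cells it was at 1.39, 0.243, 0.541 and 6.82 in KO and 0, 0.231, 0.238 and 0.109 in WT (log2 fold change 3.88, SE 0.97, adjusted p = 0.00349), and in CD11c+ SD cells the adjusted p was 0.234. The 12 type I and III ligands together had 138 counts over all 32 libraries, with no count at all for 6 of them, and Ifnb1 never exceeded 16 counts in a library. Of 5 receptor genes tested, 1 was higher and 1 lower in CD11c+ HFD cells, 4 were higher on SD in each population, and none differed in CD206+ HFD cells. Of 16 signalling genes, 10, 7, 6 and 8 were higher in KO (CD11c+ HFD, CD11c+ SD, CD206+ HFD, CD206+ SD) and 2 were lower, both in CD11c+ SD cells.

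Irf7, which amplifies interferon production, was at 241, 211, 322 and 304 CPM in KO and 13.9, 25.2, 13.8 and 15.4 in WT CD11c+ SD libraries, 15.7-fold higher (log2 fold change 3.98, SE 0.25, adjusted p = 1.48e-12). In CD206+ SD cells it was at 232, 223, 372 and 324 and 25, 38.8, 28.7 and 28.1, 9.54-fold higher. Stat2, which carries the type I signal to the nucleus, was 1.84- to 2.35-fold higher over the 4 comparisons. Irf9, its DNA-binding partner, was higher in 3 comparisons and not in CD206+ SD cells (log2 fold change 0.3, SE 0.13, adjusted p = 0.102). Of 19 nucleic acid sensing genes outside the 40, 9, 12, 8 and 10 were higher and 2, 0, 1 and 0 lower in the same order. Of 19 tested genes classically induced by interferon-gamma, 19, 17, 19 and 18 were higher and none was lower. Among them Cxcl9, a chemokine for T cells, was 7.51- to 10.8-fold higher.

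Markers of other cell types also moved with genotype. Of 7 T cell genes tested, 7, 3, 7 and 6 were higher in KO and 0, 1, 0 and 1 lower, in the order used above. Cd3d, Cd3e and Cd3g, which define T cells, summed to 5.56 to 21.8 CPM in KO and 0.579 to 2.35 in WT CD11c+ HFD libraries, and to 8.96 to 39.2 and 1.37 to 4.5 in CD206+ HFD libraries. On SD they summed to 6.63 to 22.4 and 2.32 to 6.45 in CD11c+ cells, and to 6.47 to 25 and 1 to 4.26 in CD206+ cells. The whole list, of which 7 of 8 genes are in the tables, summed to 66.6 to 110, 72.7 to 93, 76.8 to 140 and 97 to 152 CPM in KO, against 11.1 to 17.8, 146 to 217, 8.13 to 16.1 and 24.2 to 34.7 in WT, in the order CD11c+ HFD, CD11c+ SD, CD206+ HFD and CD206+ SD. In WT CD11c+ SD libraries Cd2 alone gave 136 to 205 CPM. Of 5 neutrophil genes tested, 2 were called higher in KO CD11c+ HFD cells and 1 in KO CD11c+ SD cells, and 0 were lower in either. Neutrophil genes, of which 6 of 7 are in the tables, summed higher in KO without overlap in all 4 comparisons, though few genes can carry a sum. Their KO sums were 54.3 to 109, 61.2 to 96.3, 81.3 to 98.1 and 85.8 to 112 CPM in the same order. The WT sums were 24.8 to 31.1, 8.73 to 14.7, 27.1 to 51.9 and 36.2 to 53.2 CPM. The lists that follow differed between comparisons, again in that order. Of 6 monocyte genes 5, 2, 4 and 3 were higher in KO and 0, 1, 0 and 0 lower, and they summed to 2080 to 2590, 2330 to 2920, 1500 to 2360 and 1730 to 2110 CPM in KO against 1030 to 1280, 4280 to 4930, 1410 to 1810 and 1810 to 2710 in WT. Of 7 conventional dendritic cell genes 6, 3, 1 and 0 were higher and 0, 1, 0 and 2 lower, with sums of 61.8 to 199, 92.9 to 205, 26.1 to 47 and 23.6 to 44.8 CPM in KO against 24.5 to 88.2, 273 to 550, 27.8 to 44.2 and 250 to 322 in WT. Of 5 NK cell genes tested 4, 0, 0 and 1 were higher and 0, 0, 0 and 1 lower. Of 14 immediate early genes, which respond to cell handling, 6, 3, 4 and 0 were higher and 1, 6, 0 and 5 lower. Nr4a1 is on both this list and the monocyte list, so these lists are not fully separate. Endothelial genes were lower for 2, 3, 0 and 5 of 6, and stromal genes for 6, 0, 6 and 1 of 6, with none of either list higher. Stromal genes summed to 67.4 to 117 CPM in KO and 184 to 567 in WT CD11c+ HFD libraries, and to 188 to 260 and 412 to 1850 in CD206+ HFD libraries. Plasmacytoid dendritic cell genes, of a type that makes much type I interferon, were higher for 1, 1, 0 and 0 of 5 and lower for 2, 0, 0 and 2. The part of these cells in the results was not tested.

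Diet was compared within genotype and population. In WT CD11c+ cells the members split. Against SD, 13 were higher on HFD and 9 lower, where 23.8% and 22.6% of all genes were called higher and lower. The share called lower was that of the background and the share called higher a little above it, so the counts alone say nothing particular to these genes. Lgals3bp, a secreted galectin-binding glycoprotein, was at 328, 208, 307 and 247 CPM on HFD and 56.2, 102, 58.5 and 134 on SD, 3.11-fold higher without overlap (log2 fold change 1.63, SE 0.21, adjusted p = 2.25e-07). Oasl1 was at 26.4, 11.9, 16.4 and 20.1 and 3.68, 7.96, 5.83 and 9.84 (log2 fold change 1.47, SE 0.25, adjusted p = 1.57e-05), and Oasl2 at 62.2, 25.5, 37.6 and 35.5 and 10.3, 21.1, 9.79 and 17.6 (log2 fold change 1.45, SE 0.26, adjusted p = 2.36e-05). The diets did not overlap for these 3. Oas1g was at 8.27, 3.32, 4.8 and 5.02 on HFD and 1.27, 3.57, 1.12 and 1.89 on SD, where the lowest HFD library was below the highest SD library (log2 fold change 1.43, SE 0.31, adjusted p = 0.000287). Ddx60, a helicase, was at 9.06, 6.44, 7.25 and 8.06 and 3.36, 6.42, 6.1 and 5.67, and Bst2, which tethers budding virus, at 54.5, 38.7, 48 and 40.9 and 31.7, 39.6, 28.7 and 36.8. Bst2 overlapped and Ddx60 nearly did, with adjusted p of 0.00386 and 0.0399. The call for Ddx60 was lost without HFD replicate 1, 3 or 4 or SD replicate 1 of these groups (log2 fold changes 0.41, 0.52, 0.46 and 0.36), and also with no filter on low counts (0.51), with limma-voom (0.56) and with only the 2 groups in the fit (0.52). Without WT CD11c+ HFD replicate 1, which held the highest value of its group for Ifit1, Ifit2, Ifit3, Oas2 and Rsad2, 8 members were higher in place of 13.

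The genes that were lower on HFD in WT CD11c+ cells were Ifitm3, Usp18, Zbp1, Mx1, Phf11b, Isg15, Isg20, Samd9l and Ifi35. Ifitm3 was at 145, 147, 148 and 170 CPM on HFD and 507, 487, 349 and 600 on SD, 3.19-fold lower (log2 fold change -1.67, SE 0.16, adjusted p = 4.24e-10). The HFD libraries were tight and the SD libraries all stood above them. Usp18 was at 9.96, 3.9, 6.69 and 5.79 on HFD and 15.1, 17.9, 16.5 and 19.8 on SD (log2 fold change -1.39, SE 0.25, adjusted p = 3.55e-05), and Mx1, a GTPase that traps viral nucleocapsids, at 2.05, 1.42, 2.14 and 2.75 and 5.96, 6.7, 5.56 and 3.71 (log2 fold change -1.39, SE 0.31, adjusted p = 0.00043). Phf11b was at 18.5, 17.5, 16.6 and 15.9 and 35.5, 42.7, 34.4 and 42.6 (log2 fold change -1.18, SE 0.16, adjusted p = 3.22e-07). Zbp1 and Isg15, whose values are given above, had log2 fold changes of -1.39 and -1.04 with no overlap. Isg20, an RNA exonuclease, was at 2.42, 3.12, 2.25 and 3.09 and 5, 5.45, 3.53 and 3.39 (log2 fold change -0.68, SE 0.2, adjusted p = 0.0058). Samd9l (log2 fold change -0.56, SE 0.14, adjusted p = 0.00185) and Ifi35 (log2 fold change -0.5, SE 0.11, adjusted p = 6e-04) differed least. Monocyte markers summed to 1030 to 1280 CPM in the WT CD11c+ HFD libraries and 4280 to 4930 on SD, with 4 of 6 lower, and conventional dendritic cell markers to 24.5 to 88.2 and 273 to 550, with 3 of 7 lower. Of 14 immediate early genes 9 were lower on HFD (6260 to 7780 and 13300 to 17500 CPM in sum). Stromal genes were higher for 6 of 6 (184 to 567 and 47.6 to 157) and mast cell genes for 5 of 5 (10.9 to 39.7 and 0.642 to 0.909). Their part in the diet result was not tested.

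In WT CD206+ cells 14 members were lower on HFD and 1, Trim25, was higher (background 13.5% lower and 14.2% higher). Direct effectors made up 6 of the 14. Mx2 was at 1.43, 0.686, 1.53 and 0.951 CPM on HFD and 4.16, 3.61, 4.38 and 3 on SD, 3.29-fold lower (log2 fold change -1.72, SE 0.3, adjusted p = 7.25e-05). Ly6e was at 264, 228, 372 and 256 and 788, 916, 672 and 1100, 3.1-fold lower (log2 fold change -1.63, SE 0.23, adjusted p = 2.66e-06), and Ddx60 at 25.4, 15, 16.6 and 25.8 and 47.5, 42.3, 53 and 50.7 (log2 fold change -1.23, SE 0.18, adjusted p = 8.1e-06). Each of these 3 had every HFD library below every SD library. Mx1 was at 4.89, 1.51, 2.62 and 1.71 on HFD and 5.5, 6.76, 6.33 and 5.29 on SD (log2 fold change -1.15, SE 0.3, adjusted p = 0.00465), Oas2 at 16.6, 9.51, 19 and 12.2 and 25.3, 33.4, 27.8 and 25.2 (log2 fold change -0.97, SE 0.25, adjusted p = 0.00408), and Usp18 at 16.3, 6.22, 7.86 and 9.32 and 17, 21.9, 15.1 and 20.6 (log2 fold change -0.91, SE 0.24, adjusted p = 0.0058). Usp18 overlapped between diets and the others did not. Ifih1, the sensor of long double-stranded RNA, was at 24.4, 18.7, 22 and 19.4 and 31.3, 33.2, 25.7 and 30.7 (log2 fold change -0.51, SE 0.14, adjusted p = 0.00684). Bst2 was at 62.9, 54, 56.9 and 50.6 and 70, 78, 64 and 64.7, with an adjusted p of 0.0463, a call lost without any 1 of 7 of the 8 libraries (all but HFD replicate 1). Trim25 was at 211, 204, 262 and 232 on HFD and 162, 164, 175 and 184 on SD (log2 fold change 0.41, SE 0.15, adjusted p = 0.0475). It was no longer called without HFD replicate 3 or 4 or SD replicate 1, 2 or 3 of these groups (log2 fold changes 0.34, 0.39, 0.39, 0.4 and 0.42), and without HFD replicate 2 the higher count was 2. Itgax was at 20.7, 50.3, 29.5 and 37 CPM in the WT CD206+ HFD libraries and 6.07, 3.29, 3.9 and 1.25 on SD, so these groups also differed in the marker of the other population. Conventional dendritic cell markers summed to 27.8 to 44.2 and 250 to 322 CPM, and 14 immediate early genes to 10800 to 13400 and 22800 to 28400, with 11 of the 14 lower. Stromal genes were higher on HFD for 6 of 6 (412 to 1850 and 216 to 702 CPM) and mast cell genes for 5 of 5 (19.1 to 113 and 2.1 to 10.8), and adipocyte genes were lower for 5 of 7 (25.2 to 66.3 and 87.7 to 128). Their part in the result was not tested.

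Both WT diet comparisons called 7 members lower (Isg15, Usp18, Mx1, Isg20, Ifitm3, Samd9l and Phf11b), 17.5% of the 40, where 5.66% of all genes tested were called lower in both. Oas2, Ddx60, Bst2 and Rtp4, 10% of the 40, were called higher on HFD in CD11c+ cells and lower in CD206+ cells, as were 1.64% of all genes. The Ddx60 and Bst2 calls among these were lost under the alternatives given above. That the populations differ in their response to diet was not tested.

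**Figure D4:**
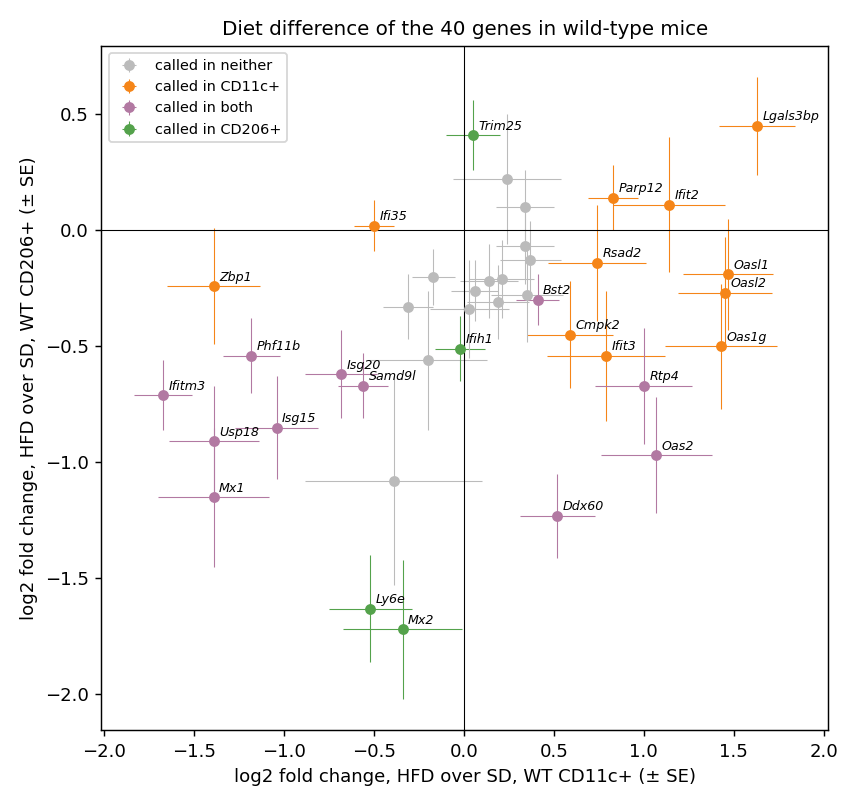
log2 fold change of HFD over SD in WT CD11c+ cells (horizontal) and WT CD206+ cells (vertical) for 40 genes, with SE bars and colours by which comparison called them. Lgals3bp, Oasl1, Oasl2 and Oas1g lie at the right, Ifitm3, Usp18 and Mx1 at the left, and Ly6e and Mx2 at the bottom.

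In KO mice no member was called between diets in either population by edgeR, where 0.00743% of all genes were called higher and 0% lower in CD11c+ cells and 0% either way in CD206+ cells. DESeq2 called none either. At an unadjusted p under 0.05, 6 members were lower on HFD in CD11c+ cells and 19 in CD206+ cells, and none was higher. The log2 fold changes were negative for 36 and 38 of the 40, with medians of -0.23 and -0.38, against 0 and 0 over all tested genes. Mx1 had the lowest adjusted p in CD11c+ cells, at 7.34, 8.05, 6.52 and 8.72 CPM on HFD and 8.36, 15.3, 18.1 and 17.1 on SD (log2 fold change -0.94, SE 0.28, adjusted p = 0.236). Ifih1 had the lowest in CD206+ cells, at 57.4, 61.6, 47.4 and 54.9 and 65.9, 74.8, 90.2 and 99 (log2 fold change -0.58, SE 0.14, adjusted p = 0.219). These 2 were chosen after their values were seen. In CD206+ cells 10 members had every HFD library below every SD library. Neither this count nor those at an unadjusted p were made over all genes, so they have no background.

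Whether the genotype difference itself changed with diet was tested as a difference of log2 fold changes, HFD minus SD. In CD11c+ cells it was larger on HFD for 4 members (Ifitm3, Phf11b, Usp18 and Zbp1) and smaller for 11 (background 13.9% and 15%). For Ifitm3 the KO over WT difference was 2.26 on HFD and 0.55 on SD (difference 1.71, SE 0.22, adjusted p = 5.4e-07), and for Phf11b it was 2.25 and 1.3 (difference 0.95, SE 0.22, adjusted p = 0.00115). It was smaller on HFD for Oasl1, at 1.28 and 3.07 (difference -1.79, SE 0.34, adjusted p = 0.000151), and for Oasl2, at 1.55 and 3.26 (difference -1.71, SE 0.35, adjusted p = 0.000376). Lgals3bp and Parp12 went the same way (-1.47 and -0.94). With all libraries in the main fit, the share called smaller was above the background and the share called larger below it. Without WT CD11c+ HFD replicate 1 the 11 became 6, and without KO CD11c+ SD replicate 3 or 4 they became 7. With only the 4 groups of the comparison in the model, 7 were smaller. A count of 6 or 7 is a share at or near the 15% of the main fit. The excess thus depended on single libraries and on the groups in the fit. In CD206+ cells the difference was larger on HFD for Ly6e (difference 1.4, SE 0.31, adjusted p = 0.00315) and Ifitm3 (difference 0.75, SE 0.21, adjusted p = 0.0207) and smaller for none (background 5.23% and 6.63%). These shares are at or below the background. At an unadjusted p under 0.05 the counts were 5 larger and 3 smaller, and DESeq2 called none smaller. Ifitm3 was lost there without WT CD206+ HFD replicate 2 or SD replicate 2 (0.65 in each case), leaving 1, and without HFD replicate 2 there was 1 smaller.

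The populations were compared within genotype and diet. On SD in WT mice 29 members were lower in CD11c+ than in CD206+ cells and 4 were higher (background 33.5% lower and 30.2% higher). Oas2 was at 1.55, 4.15, 1.71 and 1.17 CPM in CD11c+ cells and 25.3, 33.4, 27.8 and 25.2 in CD206+ cells, 12.8-fold lower (log2 fold change -3.67, SE 0.29, adjusted p = 1.27e-11). Ly6e was at 54.3, 108, 48.4 and 110 and 788, 916, 672 and 1100, 10.9-fold lower, and Ddx60 at 3.36, 6.42, 6.1 and 5.67 and 47.5, 42.3, 53 and 50.7, 9.01-fold lower. All 3 were fully separate. Rtp4, a chaperone of receptors, was at 6.87, 12.4, 8.72 and 8.93 and 39.9, 65.4, 37.4 and 54.6 (log2 fold change -2.42, SE 0.27, adjusted p = 8.52e-09), Ifit3 at 2.05, 4.34, 3.1 and 2.35 and 13.3, 20.2, 12.2 and 12.2 (log2 fold change -2.28, SE 0.31, adjusted p = 3.5e-07), and Oas1g at 1.27, 3.57, 1.12 and 1.89 and 8.51, 11.2, 6.71 and 9.33 (log2 fold change -2.17, SE 0.3, adjusted p = 3.8e-07). Higher in CD11c+ cells were Zbp1 (log2 fold change 0.68, SE 0.25, adjusted p = 0.0183), Phf11b (log2 fold change 0.46, SE 0.15, adjusted p = 0.0115), Ifi35 (log2 fold change 0.43, SE 0.11, adjusted p = 0.00178) and Trim25 (log2 fold change 0.43, SE 0.15, adjusted p = 0.0165). Phf11b was at 35.5, 42.7, 34.4 and 42.6 in CD11c+ and 28.1, 33.1, 23.4 and 28.5 in CD206+ cells. Trim25 lost its call without WT CD11c+ SD replicate 2 (0.33), and Zbp1 without replicate 4 (0.54). The CD11c+ libraries here are those with the high monocyte markers, 4280 to 4930 CPM against 1810 to 2710 in the CD206+ libraries. Adipocyte genes were lower in CD11c+ cells for 7 of 7, stromal and endothelial genes for 6 of 6 each, and immediate early genes for 9 of 14 (13300 to 17500 CPM in sum, against 22800 to 28400), while conventional dendritic cell genes were higher for 4 of 7. Their part in the result was not tested.

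On HFD in WT mice 11 members were lower in CD11c+ cells and none higher (background 8.7% and 11.7%). Same-numbered CD11c+ and CD206+ libraries deviated together in this group. With each same-numbered pair of a genotype and diet as a block, 21 were lower and 1, Oasl1, was higher (log2 fold change 0.37, adjusted p = 0.0242 by edgeR). Over all 13453 tested genes the block gave 1815 lower and 2099 higher. Without the block DESeq2 called no member higher, and no member was higher at an unadjusted p under 0.05. Ly6e was at 40.4, 50, 73.4 and 59.6 CPM in CD11c+ and 264, 228, 372 and 256 in CD206+ cells (log2 fold change -2.33, SE 0.23, adjusted p = 2.54e-08), and Oas2 at 7.69, 2.83, 3.68 and 4.25 and 16.6, 9.51, 19 and 12.2 (log2 fold change -1.64, SE 0.27, adjusted p = 5.61e-05). Ddx60 was at 9.06, 6.44, 7.25 and 8.06 and 25.4, 15, 16.6 and 25.8 (log2 fold change -1.43, SE 0.19, adjusted p = 3.99e-06), and Ifitm3 at 145, 147, 148 and 170 and 341, 272, 389 and 308 (log2 fold change -1.1, SE 0.15, adjusted p = 5.61e-06). For all 4 every CD11c+ library lay below every CD206+ library. Ifit3, at 9.38, 3.42, 3.98 and 3.91 and 16.5, 7.5, 8.7 and 6.94, and Rtp4, at 29.6, 10, 18.1 and 16.5 and 42.7, 19.3, 30.8 and 31.1, overlapped (adjusted p of 0.0231 and 0.037). Parp14 (-0.56), Dtx3l (-0.55) and Eif2ak2 (-0.46) had the smallest log2 differences that passed. Without the block, leaving out WT CD11c+ HFD replicate 2, 3 or 4 left 6 lower and leaving out WT CD206+ HFD replicate 1 left 7. Immediate early genes were lower in CD11c+ cells for 11 of 14 (6260 to 7780 CPM in sum, against 10800 to 13400), stromal genes were lower for 3 of 6, and conventional dendritic cell genes were higher for 4 of 7. Their part in the result was not tested.

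In KO mice on HFD 10 members were lower in CD11c+ cells and 1, Phf11b, was higher (background 22.5% and 23.3%). Oas2 was at 11.3, 8.1, 8.15 and 10.6 CPM in CD11c+ and 39.3, 40.4, 39.8 and 31.5 in CD206+ cells (log2 fold change -1.98, SE 0.26, adjusted p = 4.52e-07), and Ddx60 at 19.4, 20.4, 22.5 and 18 and 68.6, 49.5, 56.3 and 74.2 (log2 fold change -1.63, SE 0.18, adjusted p = 5.22e-08). Ly6e, Mx2, Eif2ak2 and Parp14 followed, with log2 fold changes of -0.99, -0.95, -0.73 and -0.67. Phf11b was at 79.7, 87.1, 84.3 and 76 in CD11c+ and 61.4, 67.6, 50.2 and 64.9 in CD206+ cells (log2 fold change 0.42, SE 0.15, adjusted p = 0.0232), and lost its call without KO CD11c+ HFD replicate 2 or KO CD206+ HFD replicate 3 (0.4 and 0.35). On SD 22 were lower and none higher (background 26.1% and 25.6%), and with the block 27 were lower and Phf11b was higher (log2 fold change 0.28, adjusted p = 0.036 by edgeR). Over all 13453 tested genes the block gave 3850 lower and 3720 higher on SD. DESeq2 called no member higher without the block, and no member was higher at an unadjusted p under 0.05. Ddx60 was at 22.5, 14.8, 24.4 and 26.4 and 85.5, 107, 111 and 85.1 CPM (log2 fold change -2.14, SE 0.19, adjusted p = 2.47e-10), Oas2 at 7.22, 11.9, 12.1 and 12.8 and 43.6, 41, 45.3 and 42.8 (log2 fold change -1.97, SE 0.25, adjusted p = 2.5e-07), and Mx2 at 0.935, 1.58, 2.56 and 1.89 and 4.17, 4.23, 4.42 and 4.65 (log2 fold change -1.32, SE 0.29, adjusted p = 0.00043). All 3 were separate between populations. Leaving out KO CD11c+ SD replicate 2 or KO CD206+ SD replicate 3 left 13 lower, and leaving out KO CD11c+ SD replicate 1 or KO CD206+ SD replicate 4 left 14, the last with 1 member higher. Oas2, Ddx60, Ly6e, Eif2ak2, Trim30a, Parp14 and Dtx3l were called lower in CD11c+ cells in all 4 comparisons, 17.5% of the 40, where 5.98% of all genes tested were. Some of these calls were near the threshold. In WT HFD mice Parp14 lost its call with no filter on low counts (-0.54), with limma-voom (-0.54) and without any 1 of 7 of the 8 libraries, Eif2ak2 with no filter (-0.45) and without any 1 of 6, and Dtx3l without any 1 of 3. In KO HFD mice Trim30a lost its call with no filter (-0.29), with only the 2 groups in the fit (-0.31) and without any 1 of 5 libraries. Immediate early genes were lower in CD11c+ cells for 8 of 14 on HFD (6950 to 11000 CPM in sum, against 12600 to 16600 in CD206+ cells) and for 10 of 14 on SD (8220 to 11700 against 11300 to 23800). In both diets adipocyte genes were lower for 7 of 7 and conventional dendritic cell genes higher for 6 of 7, and stromal genes were lower for 4 of 6 on HFD and 6 of 6 on SD. Their part in the results of the KO mice was not tested.

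Whether the genotype difference changed with population was tested in the same way, CD11c+ minus CD206+. On SD it was larger in CD11c+ cells for Ly6e, Oas1g, Oas2, Rtp4, Oasl2 and Ddx60 and smaller for Trim25 (background 4.1% and 2.48%). For Ly6e the KO over WT difference was 3.58 in CD11c+ and 1.44 in CD206+ cells (difference 2.14, SE 0.32, adjusted p = 9.93e-05). For Oas1g it was 3.78 and 1.82 (difference 1.96, SE 0.39, adjusted p = 0.00212), and for Oas2 it was 2.33 and 0.63 (difference 1.7, SE 0.38, adjusted p = 0.00555). Rtp4 and Oasl2 differed by 1.66 and 1.42, and Ddx60 by 1.03, a call lost without KO CD11c+ SD replicate 4 (0.89). Same-numbered libraries deviated together in both SD genotypes, and with the block 20 members were larger and 2 smaller, Zbp1 (-0.63) joining Trim25 (-0.78). Over all 13453 tested genes the block gave 920 larger and 692 smaller. In the fit with no block, the count of smaller members changed when 1 library was left out. It was 0 without KO CD11c+ SD replicate 1, KO CD206+ SD replicate 1 or WT CD11c+ SD replicate 2, and 2 without WT CD206+ SD replicate 2. On HFD 2 members were larger in CD11c+ cells, Ly6e (difference 1.34, SE 0.32, adjusted p = 0.0137) and Ifitm3 (difference 0.75, SE 0.22, adjusted p = 0.0433), and none was smaller (background 2.16% and 2.2%). At an unadjusted p under 0.05 the counts were 4 larger and 1 smaller, and DESeq2 called none smaller. Ifitm3 lost its call when any of 11 of the 16 libraries was left out.

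Within groups, the mean of the 40 genes in a CD11c+ library went with that in the CD206+ library of the same number. Expressed as deviations from the group means, the 16 pairs had Pearson's r of 0.93 and Spearman's rho of 0.94, and 0.9 without the 2 pairs farthest from the median. The sign was the same in 14 of 16 pairs. Over single genes the median r was 0.73 for the members, of which 97.5% were above 0, and 0.27 for all 13453 tested genes, of which 78.2% were above 0. In WT HFD mice replicate 1 was at 0.29 above its group in CD11c+ and 0.32 above in CD206+ cells, and replicate 2 at -0.25 and -0.33. In KO SD mice replicates 1 and 2 were below their groups in both populations (-0.2 and -0.23 in CD11c+, -0.25 and -0.17 in CD206+ cells) and replicates 3 and 4 above (0.18 and 0.25, 0.17 and 0.25). The 4 pairs of KO HFD mice spanned the least, from -0.11 to 0.13 in CD11c+ cells. Of these pairs 0 had the same rank in both populations, against 2 in WT HFD, 2 in KO SD and 4 in WT SD mice. These values are a description of 16 pairs from 4 groups, and the labels do not say that a shared number marks a shared mouse.

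**Figure D5:**
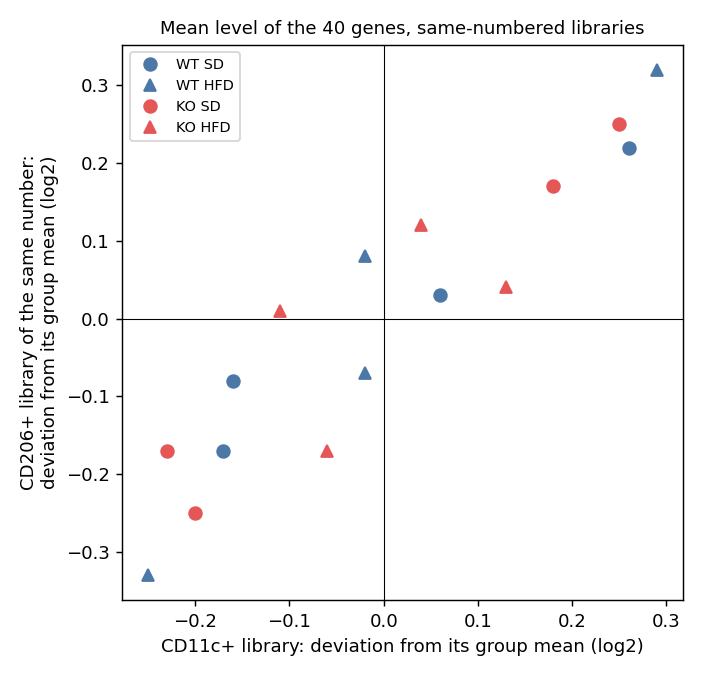
Deviation of the 40-gene mean (log2) from its group mean in the CD11c+ library (horizontal) and the CD206+ library of the same replicate number (vertical), 16 pairs in 4 groups. The points run along the diagonal, with WT HFD replicate 2 at the lower left and WT HFD replicate 1 at the upper right.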

How the data were processed

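RNA sequencing counts per gene were deposited as 1 table per library, for 32 libraries. The submitters' processing notes name TopHat2 2.1.0, SAMtools 0.1.18, Trimmomatic 0.35 and FastQC 0.11.4, with mm10 (GRCm38). The program that counted reads, and its use of strand, is not given in the sources used here. Counts were used as deposited. 5 entries that name no gene were left out, among them reads with no feature (5.16 to 11.1%) and ambiguous reads (0.992 to 1.48%).

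Genes were filtered with filterByExpr (min.count 10) and tested with edgeR 4.0.16 in R 4.3.3 (TMM factors 0.855 to 1.08, quasi-likelihood F test, 8 group means, no block), with Benjamini-Hochberg adjustment over 13453 genes and a threshold of 0.05. The 12 comparisons between 2 groups and 4 interactions came from 1 fit. Each SE is the absolute log2 fold change divided by the square root of the F statistic. Alternatives were DESeq2 1.42.0, RLE factors, no filter, limma-voom (limma 3.58.1), only the groups compared, a replicate block, and leaving out each library. In comparisons and interactions that involve population, the block was the same-numbered pair of libraries within a genotype and diet. In the others it was the replicate number alone. The scripts were tested on simulated data.

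Groups came from the labels. Same-numbered CD11c+ and CD206+ libraries were taken as paired where every correlation of their deviations passed 0.1: WT HFD (0.47, 0.43, 0.23, 0.27), WT SD (0.16, 0.22, 0.14, 0.28) and KO SD (0.18, 0.16, 0.14, 0.32). The pairing is a hint from the data.

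The 40 members and the other lists were chosen with earlier results of these data known. Per-library values are given for the largest difference of each role group in CD11c+ HFD cells, for up to 6 largest and 3 smallest called differences in other comparisons, and for genes against the main direction. A mean over the members has no test. Shared words and overlaps used GENCODE vM21. 1 gene of the signalling list is not reported here by name.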

Additional observations from a re-analysis of the deposited data

Results flagged for a closer look

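Among 64 sets of 4 libraries examined for the genes described by role, 2 held a library far from the other 3, and chance flags about 5% of sets. Isg15 was at 5.9 CPM in WT CD11c+ HFD replicate 1 and at 3.9 to 4.14 in the others of that group, with a gap of 0.88 of the range. Ifit1 was at 6.31 CPM in WT CD11c+ SD replicate 3 and at 4.82 to 5.05 in the others, with a gap of 0.85.

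The difference between KO and WT itself differed between groups for several genes, by the test of the difference. Between diets in CD11c+ cells, HFD minus SD, it was 1.71 for Ifitm3 and 0.95 for Phf11b on the log2 scale. It was -1.79 for Oasl1, -1.71 for Oasl2, -1.47 for Lgals3bp and -0.94 for Parp12. In CD206+ cells it was 1.4 for Ly6e and 0.75 for Ifitm3. Between populations, CD11c+ minus CD206+, it was 1.34 for Ly6e and 0.75 for Ifitm3 on HFD. On SD it was 2.14 for Ly6e, 1.96 for Oas1g, 1.7 for Oas2, 1.66 for Rtp4, 1.42 for Oasl2 and 1.03 for Ddx60.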

How the results depend on the processing

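Of the 112 single-gene calls that were followed under the alternatives, none reversed direction. The other calls were not followed gene by gene. The difference in mean log2 level over the 40 genes, HFD against SD in WT CD11c+ cells, which had no test, was 0.09 and became -0.01 without WT CD11c+ HFD replicate 1. Of 192 counts of members under other tools, filters, scalings or the block, 180 stayed within 1.5 times. These include counts of 0 that stayed 0, such as all those between diets in KO cells. With the replicate block, HFD against SD in WT CD206+ cells had 0 higher in place of 1. CD11c+ against CD206+ had 1 higher and 21 lower in WT HFD cells, 20 lower in KO HFD cells and 1 higher in KO SD cells, in place of 0, 11, 10 and 0. Genotype by population had 4 larger and 1 smaller on HFD and 20 larger and 2 smaller on SD, in place of 2, 0, 6 and 1. Over all 13453 tested genes the block gave 641 larger and 568 smaller for genotype by population on HFD. It gave 3490 of these genes lower for CD11c+ against CD206+ in KO HFD cells. All calls of members between populations made without the block were kept with it. In KO HFD mice same-numbered libraries did not all deviate together (-0.03, -0.05, 0.33 and 0.2), nor did those across genotype or diet, so there the block is only a shared number. With only the groups compared, genotype by diet had 7 smaller in CD11c+ cells in place of 11 and 4 larger in CD206+ cells in place of 2, and limma-voom also gave 4 there. With a median over members, the difference between populations was -0.68 in place of -0.9 in WT SD mice, -0.08 in place of -0.32 in KO HFD mice, -0.19 in place of -0.41 in WT HFD mice and -0.36 in place of -0.47 in KO SD mice. The cause was not tested.

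Leaving out each library in turn gave 0 to 1 lower for KO against WT in CD11c+ HFD cells. For HFD against SD it gave 8 to 15 higher in WT CD11c+ and 0 to 2 higher in WT CD206+ cells. For CD11c+ against CD206+ it gave 6 to 13 lower in WT HFD, 0 to 1 higher in KO HFD, and 0 to 1 higher and 13 to 23 lower in KO SD cells. Genotype by diet had 6 to 15 smaller in CD11c+ cells, and 1 to 2 larger and 0 to 1 smaller in CD206+ cells. Genotype by population had 1 to 2 larger on HFD and 0 to 2 smaller on SD. Of 1696 alternatives for single genes, 1588 kept their call and 108 lost it.

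Depth limits genes with few counts, such as the interferon ligands, Ifi44 and Mx2. With 4 libraries a group, 1 library can decide a call near the threshold.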
